A study of Mus musculus with 12 samples.

Results

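In mouse epidermis, 508 short stretches of RNA crosslinked to ESRP1 lay within the first 1000 nt of a protein-coding gene. They were selected on position from the study's own lists of crosslink sites. Neighbouring sites of the same strand, up to 10 nt from each other, formed a region, which was kept when all 3 lists contributed to it. Kept regions were counted when centred in exactly 1 protein-coding gene span of 4000 nt or more, on the strand that carried most of its sites, and no farther than 1000 nt into it. These 508 regions, in 463 genes, were 8.47% of the 5997 regions placed in such spans by the same rule, and came from 9649 regions found in all 3 lists and 45738 found in any. The sites thus chose the members, and their number and the number of lists that hold them are descriptions without a test.

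ESRP1 is an RNA-binding protein of epithelial cells, best known as a regulator of alternative splicing that keeps the epithelial forms of many transcripts, and it binds GU-rich RNA with runs of GGU and UGG. The 5′ end of a gene carries the cap, the 5′ untranslated sequence, the start codon and usually the first splice donor, and in the nucleus it is the first RNA to leave the polymerase. A crosslink there places the protein on the beginning of the transcript.

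The study used crosslinking and immunoprecipitation (eCLIP), in which ultraviolet light fixes protein to RNA and reverse transcription tends to stop at the fixed nucleotide. Epidermis came from the back skin of mouse pups at postnatal day 1 with the genotype Esrp1FLAG/FLAG, so that the FLAG epitope was on ESRP1 itself. The 6 immunoprecipitated libraries (FLAG antibody) and the 6 input libraries (no antibody) were biological replicates 1 to 6 of this 1 genotype, tissue and age, and in both the membrane from 75 to 140 kDa was excised. Each of the 3 lists was called by the authors on 2 immunoprecipitated replicates with input, and the lists held 73602, 40014 and 53864 sites. Sites carry the authors' score, which has no stated scale, so scores are also given as the percentile of a region's highest score among all regions of its list. Because each list pools its replicates, errors given here are the spread between lists. Untagged animals and animals without ESRP1 are not part of the samples used here, and RNA levels were not analysed here, so more contacts per RNA and more RNA cannot be told apart. Of marker genes of melanocytes (8 spans), dermal fibroblasts (10), immune cells (6) and endothelium or muscle (7), 0 held a region at the 5′ end, and of 9 keratinocyte markers Krt5 did. Over all spans of at least 4000 nt the share was 2.62%, so a 0 in lists this short says little, and 1 melanocyte, 1 fibroblast and 1 immune marker gene held a region of all 3 lists elsewhere.

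Sequence was at hand for 79 of the 508 regions, those whose window of 41 nt around the best site lay inside a promoter window of RefSeq (GRCm38.p6, from 250 nt before to 50 nt after an annotated start, either strand). The best site is the nucleotide with the highest score percentile summed over the lists. The 10 of these 79 with the highest score percentiles are shown first, since they show the strongest contacts with sequence at gene starts, with 15 nt before the best site and 14 after it, read on the RNA strand. Capitals mark GGTGG, written as DNA letters. The letters are genomic, so stretches at sites nearest a start reach before the span start.
Supt6, chr11:78245660-78245689, minus strand: ggcgacGGTGGTGGTGGTGGTGGcggcggc
Canx, chr11:50325533-50325562, minus strand: tgcagcacggggccgggtgtgcgGGTGGga
Tab3, chrX:85573989-85574018, plus strand: ggaggaggcaagggggcggcggcagcggcg
Tma7, chr9:109082349-109082378, minus strand: atacgatcaggggctggtgaaggggctgga
Brpf3, chr17:28801128-28801157, plus strand: ggcgggcggcagcGGTGGTGGcggcGGTGG
Timm23, chr14:32201853-32201882, minus strand: cccggaaggtcagcgtggtgaaGGTGGcag
Pet117, chr2:144368975-144369004, plus strand: gcctggcccgttgcggctgcggcggcggcg
Scamp1, chr13:94285286-94285315, minus strand: ggcgccgggctcgGGTGGgtgacgcgcagt
Tstd2, chr4:46138403-46138432, minus strand: ggagcagcgccaagttggtgaagggagacc
Sgpp1, chr12:75735703-75735732, minus strand: tccgtgagcgcgccaggggaggggcgcgcg
The stretches are rich in guanine. Of those without GGTGG, Tab3, Tma7, Pet117 and Sgpp1 carry GGCGG or GGGG, and Tstd2 carries none of the 3 words. Brpf3, Scamp1 and Tstd2 are named for this set alone. The window used for counts runs to 20 nt on each side and is longer than the stretches printed.

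GGTGG occurred in 38 of the 79 windows (48.1%, exact 95% interval 36.7 to 59.6, counting error only). As background, GGTGG stood in 8.06% of 21263 windows of the same length placed 10 to 50 nt after the starts of protein-coding genes, and on average in 6.66% of promoter windows at the very offsets of the 79 members, with a range over those offsets of 5.43% to 8.16%. With the best site taken from a single list, the share was 49.4% ± 0.641 (SD, n = 3 lists). These windows lie in largely the same member regions, so this SD shows the effect of the choice of site and is not an error of the share. The same windows read on the opposite strand held it in 2 of 79 (2.53%). The 41 nt just upstream held it in 11 of 77 windows with sequence (14.3%), where 37 of the same 77 held it around the site. For members close to a span start, the upstream window lies wholly or partly before that start, so it is genomic sequence and not known RNA. Its nearest copy was centred a median of 2 nt from the best site and within 5 nt in 26 windows, and 14 windows had 2 or more copies. Outside the first 1000 nt, 19 regions of all 3 lists had sequence, and 10 of them (52.6%) held the motif. The median score percentile was 69.0 for the members with GGTGG and 66.2 for those with sequence and no GGTGG.

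Other G-rich words were set beside the fixed promoter windows 10 to 50 nt after starts, without matching of offsets, each counted on the RNA strand and free to overlap the others. TGGTG stood in 31.6% of member windows against 5.77%, GTGGT in 24.1% against 4.06%, GGCGG in 41.8% against 15.5%, GGAGG in 29.1% against 12.8%, and GGGG in 58.2% against 20.2%. TGGG stood in 44.3% against 23.6%. Guanine made up 48.4% of all bases in member windows against 32.2%, cytosine 22.5% against 28.4%, adenine 13.9% against 19.3%, and thymine 15.2% against 20.1%. The genomic neighbourhood of the sites, for some members before the span start, was also rich in some of these words. In the 77 windows just upstream GGCGG stood in 31.2%, against 42.9% around the site in the same members, GGGG in 24.7% against 58.4%, GGAGG in 14.3% against 28.6%, TGGTG in 5.19% against 31.2% and GTGGT in 5.19% against 23.4%. TGGG stood in 29.9% of these upstream windows against 42.9% around the site. Guanine made up 39.4% of the bases in the upstream windows. Of these words GGCGG differed least between the site and its upstream neighbour. These are descriptions of windows near an annotated start, a choice of members that the reference imposes, and no match says only that these letters are not in the window.

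The nucleotide at the best site was guanine in 61 of 79 windows (77.2%), thymine (uracil in RNA) in 17 (21.5%), cytosine in 1 and adenine in 0. Whether this nucleotide or a neighbour was the crosslinked one was not tested. The next nucleotide was guanine in 75.9%. At the second position after the site guanine stood in 57.0% of windows and thymine in 32.9%, and at the third position guanine stood in 68.4%. In the Supt6 stretch printed above the best site is the first base of a GGTGG.

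**Figure D1:**
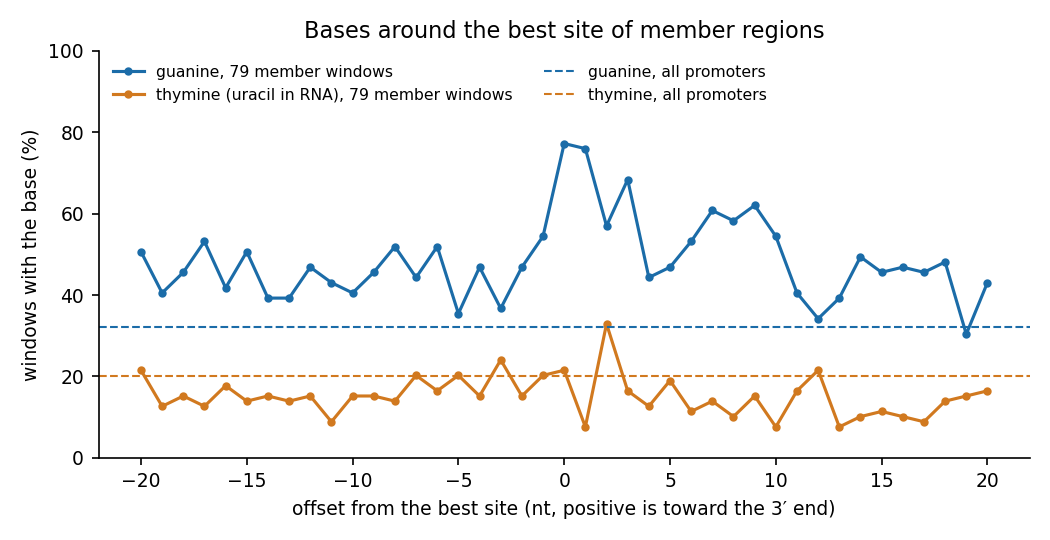
Share of the 79 windows with guanine (blue) or thymine (orange) at each offset in nt from the best site, with dashed lines for the level in all promoters 10 to 50 nt after the start. Guanine peaks at 77.2% at the site and 75.9% at the next nucleotide, and thymine rises above its promoter level of 20.1% to 32.9% at the second nucleotide after the site.

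Members gathered close to the start. The first 50 nt of spans held 47 of them, the next 50 held 108, positions 101 to 250 held 167, and 251 to 500 held 119. From 501 to 750 nt there were 35 and from 751 to 1000 nt 32, similar to the 37, 37, 22 and 32 regions in the next 4 stretches of 250 nt up to 2000 nt. The median distance was 169.5 nt (quartiles 89 and 350.25, range 3 to 999), and 63.4% of members lay in the first 250 nt. Distances run along the genome, so an intron counts in full, and whether a region lay in untranslated sequence, coding sequence or an intron was not analysed here.

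The lists were also counted on their own, with regions taken whether or not another list held them. The first 1000 nt held 7.49%, 8.04% and 9.14% of the placed regions of lists 1, 2 and 3 (8.22% ± 0.837, SD, n = 3), and the following 1000 nt held 2.44% ± 0.273. Positions 51 to 100 held 1.54% ± 0.353, above the 0.704% ± 0.121 of positions 1 to 50 in every list. List 3 was highest and list 1 lowest in the first 1000 nt, and the 3 values of the first 1000 nt lay above all 3 values of the next 1000 nt.

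**Figure D2:**
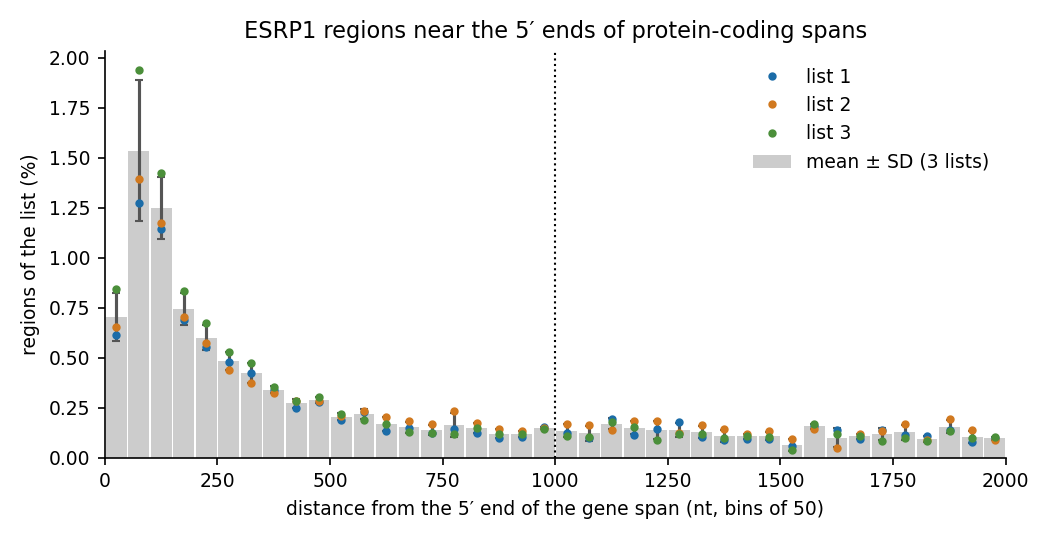
Percent of each list's placed regions in bins of 50 nt along the start of the span; grey bars are the mean over 3 lists with SD, dots are the lists, and the dotted line marks 1000 nt. The highest bin is 51 to 100 nt at 1.54% ± 0.353, the first 50 nt hold 0.704% ± 0.121, and the bins flatten beyond about 500 nt.

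Many spans begin at a far upstream start, so the distance to the nearest annotated start on the same strand was also taken for the 416 members on the annotated strand of their gene. Its median was 104 nt downstream (quartiles 58 and 226.5). Only 2 members lay less than 5 nt downstream of a start and 6 less than 10 nt, while 55 lay less than 50 nt, 120 from 50 nt to under 100 nt, 98 from 100 to under 200 nt, 95 from 200 to under 500 nt and 24 at 500 nt or more. The other 24 lay upstream of their nearest listed start. These stretches differ in width, so their counts do not compare directly. Of the 2 stretches of 50 nt, the one from 50 to under 100 nt held more members (120 against 55). Whether the listed starts carry the cap in this tissue was not analysed here.

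The 10 members nearest to the span start were in Sesn2 (3 nt), Cox11 (6 nt), Prcc and Pet117 (7 nt each), Tnk2 (9 nt), Lrp10 and Vcpip1 (10 nt each), Kdm3b and Habp4 (12 nt each) and Spryd3 (14 nt). Sesn2, a stress-induced regulator of mTORC1 signalling, had highest scores of 11.001, 20.9 and 19.96 in lists 1, 2 and 3. Cox11, a copper chaperone for cytochrome c oxidase, had 72.7, 42.8 and 32.6 from a single nucleotide in each list. Pet117, an assembly factor of the same enzyme, had 109, 93.2 and 138. Scores in Pet117 lay above those of Cox11 and Sesn2 in every list. The Tnk2 region stood at -29047 nt from the nearest listed start, so its span start is not among the listed starts. The Sesn2 stretch, shown because it is the member closest to a span start, holds GGTGG on the 5′ side of its best site. Most of that GGTGG lies before the span start at 132510456, so the annotated span does not contain it in full.
Sesn2, chr4:132510438-132510467, minus strand: gttccgtGGTGGggatggtgaggagcgccg

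At the other edge, the members just inside the limit were in Scyl3 and Cytl1, both at 999 nt, with highest scores of 26.9, 30.8 and 29.3 and of 11.6, 17.0 and 32.2. The regions just outside were in Atp5j (1014 nt; 52.6, 23.8 and 64.9) and Ly6g6f (1023 nt; 43.6, 21.7 and 49.7). Scores on the 2 sides of the limit overlapped only in list 2: in lists 1 and 3 both outside regions were higher.

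Strand came from the sites, and RefSeq starts allowed it to be compared with the annotation for 424 members. Of these, 416 (98.1%, exact 95% interval 96.3 to 99.2) lay on the strand of their gene. The share was 99.2% (98.4 to 99.7) of 875 regions in the last 1000 nt and 89.9% (88.8 to 90.9) of 3464 in the interior. The 8 members on the other strand were in Car9, Frmpd3, Lelp1, Nfatc3, Sp140, Spen, Stx3 and Znrd1as, and for them the first 1000 nt by sites is the last 1000 nt of the annotated gene. Frmpd3 had the highest scores of the 8, with 367, 107 and 354 at 691 nt. For 62 members an opposite-strand start lay within 1000 nt upstream of the span. Transcripts from such starts lead away from the span, so this count says nothing about sites inside it. On the opposite strand, 0 members had a site within 10 nt and 1 had a site within 100 nt. Another kind of gene covered 25 members, in 24 cases a long noncoding RNA.

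Members had 3 to 24 sites (median 8 over the 3 lists together) and were 1 to 28 nt long (median 10). The best site was the same nucleotide in all 3 lists in 151 members (29.7%, exact 95% interval 25.8 to 33.9), against 37.6% (34.7 to 40.6) of regions at 3′ ends and 35.1% (33.7 to 36.5) of interior regions. Between any 2 lists it agreed in 45.5% to 48.6% of members and lay within 3 nt in 76.8% to 81.3%. In 30 members each list had a single site. The joining of sites and the short length of regions limit how far best sites can lie apart, so this agreement does not measure resolution. The interval for identical sites lay below that of regions at 3′ ends and overlapped that of interior regions. These intervals cover counting error only, and regions are not replicates. Mean length was 10.3 nt in members, 8.74 nt at 3′ ends and 9.28 nt in the interior. Whether length goes with the share of identical sites was not tested.

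Score percentiles of members were close to those of other regions of all 3 lists. Their median was 73.0, 71.5 and 71.4 in lists 1, 2 and 3 (72.0 ± 0.910, SD, n = 3). Regions in the last 1000 nt had 78.9, 72.1 and 75.9, and members were lower by a mean of 3.69 percentile points in 3 of 3 lists (exact two-sided sign-flip permutation p = 0.25, the smallest that 3 lists allow). Interior regions had 75.7, 74.5 and 70.6, and members were lower in 2 of 3 lists (exact permutation p = 0.5). Sites per region and list, which the rule itself used, numbered 2.95 ± 0.929 in members, 2.83 ± 0.924 at 3′ ends and 2.95 ± 0.889 in the interior. With 3 lists no test can pass 0.05, and a p above it does not show that places are alike.

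**Figure D3:**
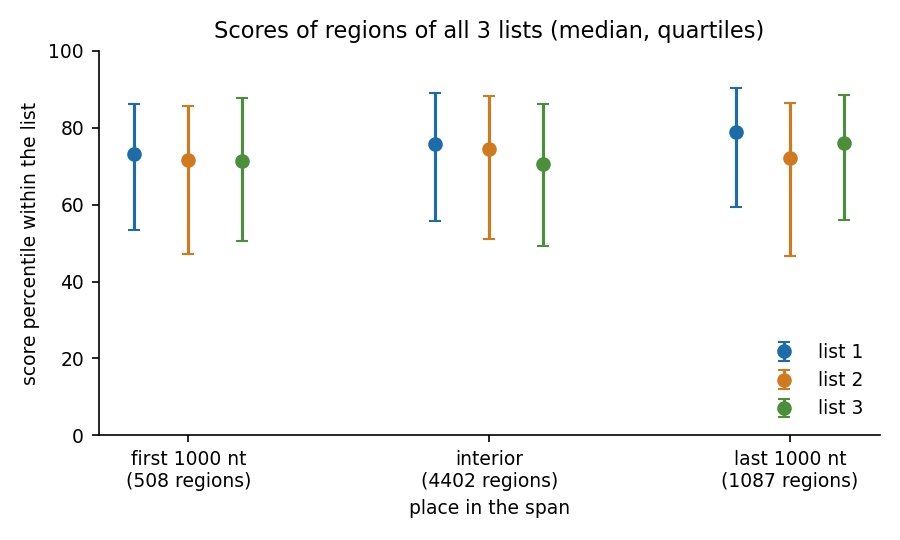
Median score percentile with quartiles for regions of all 3 lists in the first 1000 nt, the interior and the last 1000 nt of spans, by list (colours). Medians in the first 1000 nt are 73.0, 71.5 and 71.4, and quartiles overlap widely between places.

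Within the first 1000 nt, the percentile did not rise or fall steadily with distance. Its median was 72.2 ± 0.428 in the first 50 nt, 69.8 ± 1.60 from 51 to 100 nt, 68.7 ± 2.75 from 101 to 200 nt, 71.4 ± 3.55 from 201 to 300 nt, 76.0 ± 3.78 from 301 to 500 nt and 72.4 ± 1.73 beyond (SD, n = 3 lists). Positions with most members thus had no higher scores than the rest. The highest median, from 301 to 500 nt, came from 91 members, and 14 of them were in keratin genes. The median mean percentile of all 19 keratin members was 94.8. The share of regions found in all 3 lists, a value that the rule itself used, was lower beyond 500 nt. Of regions of any list in the first 250 nt, 22.6% (exact 95% interval 20.4 to 24.8) were in all 3 lists, of those from 251 to 500 nt 21.9% (18.5 to 25.6), and of those from 501 to 1000 nt 12.1% (9.50 to 15.1). Over the whole first 1000 nt it was 20.1% (18.6 to 21.7) of 2524 regions, against 18.3% (17.8 to 18.8) of interior and 23.8% (22.6 to 25.1) of 3′-end regions. The members of the rule are the regions in all 3 lists, so these shares are descriptions without a test. Their intervals cover counting error only, and regions are not replicates.

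The 15 members with the highest mean percentile were led by keratins. Krt5, the keratin of basal keratinocytes, had 3 members, and the strongest of them (chr15:101712458-101712460, minus strand, position 447 of the span) reached 390, 279 and 411 in lists 1, 2 and 3. The Krt5 region at 460 nt had 367, 250 and 408, and that at 217 nt had 287, 195 and 353. Krt6a, a keratin of the hair follicle and of stressed epidermis, had 422, 177 and 417 at 379 nt and 411, 177 and 400 at 392 nt. List 2 was lowest at each of these 5 regions.

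The strongest region outside the keratins was in Supt6, the gene of a histone chaperone that travels with RNA polymerase II. Its highest scores were 330, 269 and 234 from 8, 5 and 7 sites at 298 nt of the span, which is 28 nt downstream of an annotated start. Atp6ap2, a subunit linked to the vacuolar proton pump and the prorenin receptor, had 198, 175 and 226 at 170 nt. Mknk2, a kinase that phosphorylates the cap-binding factor eIF4E, had 186, 142 and 230 at 46 nt. Ramac, the activator of the enzyme that methylates the mRNA cap, had 205, 193 and 158 at 63 nt from 8, 5 and 8 sites. These 4 genes had scores above 140 in every list.

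Srcap, the ATPase of a complex that exchanges histone H2A.Z, had 246, 93.8 and 190 at 72 nt, under the long noncoding RNA 1700008J07Rik. Mier3, a corepressor gene, had 356, 82.1 and 174 at 183 nt. Canx, the calnexin chaperone of the endoplasmic reticulum, had 155, 103 and 196 at 125 nt. Tab3, an adaptor of TAK1 kinase signalling, had 210, 92.3 and 167 at 152 nt. Apbb1ip, a Rap1 effector in integrin signalling, had 269, 121 and 146 at 145 nt of the span, which is -18212 nt from its nearest listed start. In all of these list 2 was lowest, and it also held the fewest sites overall.

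**Figure D4:**
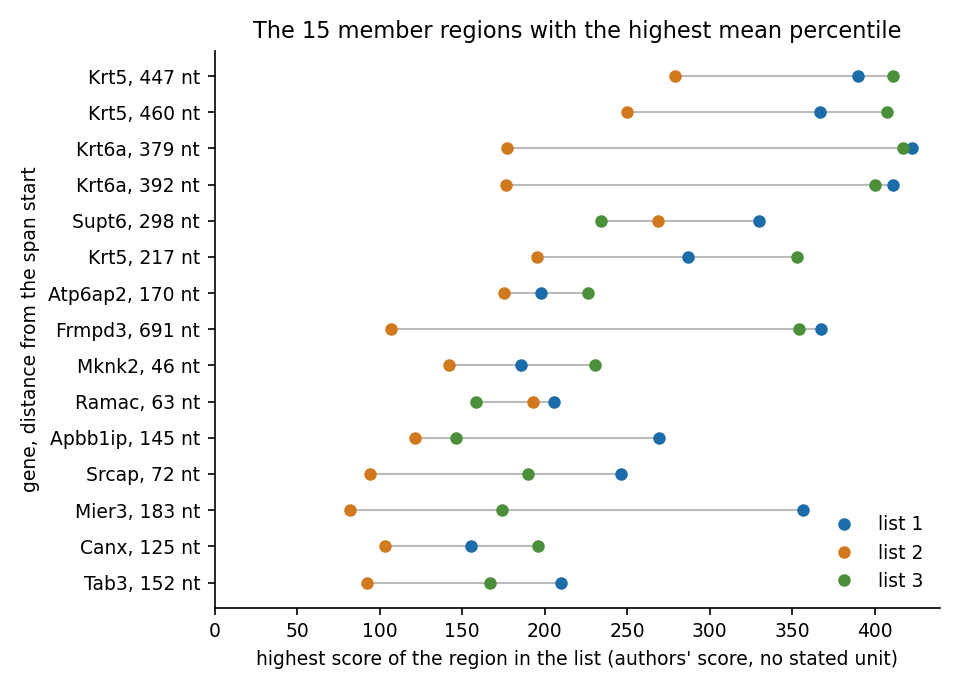
Highest score in each list (colours; the authors' score, no stated unit) for the 15 members with the highest mean percentile, labelled by gene and distance from the span start. Krt5 and Krt6a regions reach beyond 350 in list 3, and list 2 is lowest in most of the 15.

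Over all 508 members the mean percentile ran from 10.6 to 99.9 with a median of 67.8. At least 90 was reached by 73 members (14.4%, against 17.2% of other placed regions), 59 of them outside the keratins, and 117 lay under 50. The members with most sites were not always the strongest. Bsdc1 had 24 sites (9, 6 and 9) with scores of 46.7, 43.9 and 80.6 at 278 nt, and Pja2, a ubiquitin ligase that acts on protein kinase A, had 22 sites with scores of 28.7, 18.03 and 31.7 at 39 nt. Rec8, a meiotic cohesin, had 20 sites and 138, 118 and 141 at 220 nt. Tma7, a small protein linked to ribosomes, had 20 sites and 141, 83.1 and 240 at 24 nt. Copg2, a coatomer subunit, had 20 sites, and Smarcc1, Tmem254a and Ndufs6 had 18 each. Tmem254a has near-identical neighbouring copies, and its reads could be split among them.

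Keratin genes held the highest scores and many members, in a grouping made after the values were seen. Of 50 keratin spans of at least 4000 nt, 23 held a region of all 3 lists somewhere. A member lay in 13 (26%), against 2.62% of all 17676 such spans, and these 13 held 19 members. Among genes with a region of all 3 lists, a member lay in 13 of 23 keratin genes and in 463 of all 3649. The 13 spans were 4240 to 10993 nt long, against a median of 24442 nt for the 463 genes. The stretch searched for members is a larger part of a short span, so span length enters these shares. RNA levels were not analysed here, and nothing was tested on these shares. The median mean percentile of the 19 members was 94.8 (lowest 36.1), and 14 of the 19 reached at least 90. On chromosome 15, the cluster of type II keratins, 8 genes held 12 members, and on chromosome 11, the cluster of type I keratins, 5 genes held 7.

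Distances of keratin members from the 5′ end ran from 112 to 490 nt with a median of 368, and 14 of 19 lay between 300 and 500 nt. Over all members the median was 169.5 nt. The Krt5 regions at 447 and 460 nt were 13 nt apart, as were the Krt6a regions at 379 and 392 nt. Krt6b had 198, 107 and 56.1 at 348 nt and 150, 111 and 152 at 407 nt. Krt6a and Krt6b are near-identical copies, so reads could be divided between them. Krt9, a keratin of the footpad, had 139, 106 and 82.4 at 329 nt and 144, 116 and 84.1 at 377 nt. Krt75, of the companion layer of hair follicles, had 104, 83.3 and 149 at 324 nt, and Krt79, of the hair canal, had 130, 53.6 and 108 at 245 nt. Krt27, of the inner root sheath, held the weakest keratin region, with 5.79, 15.5 and 12.3 at 112 nt. Keratins known from the interfollicular epidermis (Krt5), hair follicles and the footpad were among the bearers, while Krt14, Krt1 and Krt10 were not. The epidermis came from back skin, and how reads were placed among related keratins is not given, so these names do not place the RNA in those sites.

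**Figure D5:**
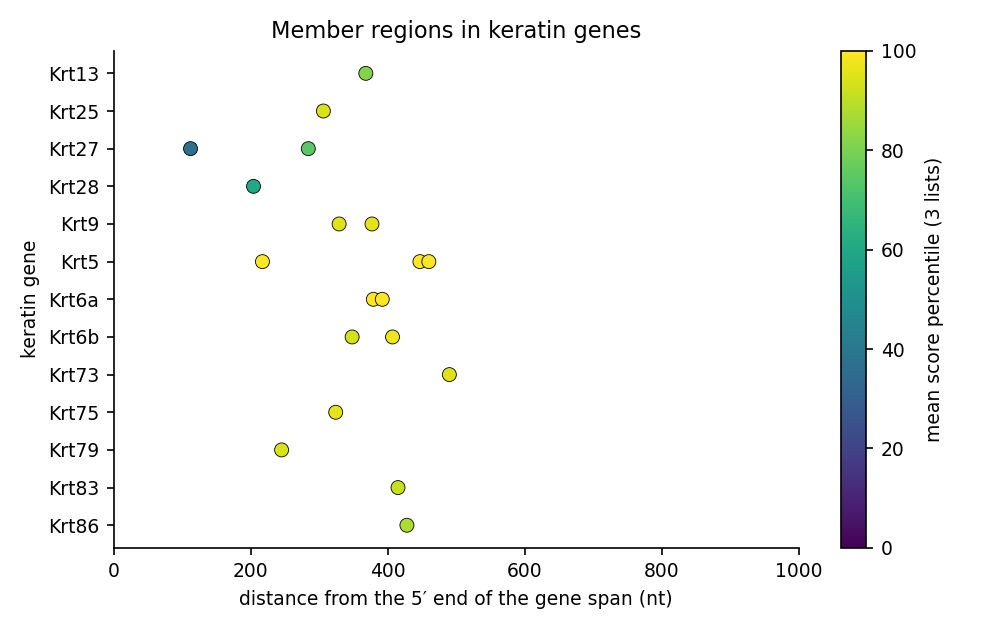
Position within the first 1000 nt of the span for the 19 keratin members, by gene (type I genes on chromosome 11 from Krt13 to Krt9, type II genes on chromosome 15 from Krt5 to Krt86), coloured by mean score percentile over 3 lists. Of the 19, 14 lie between 300 and 500 nt.

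Most genes had a single member (421), 39 had 2 and 3 had 3 (Krt5, Timm23 and Rps6ka3). Within these 42 genes neighbouring members were a median of 37 nt apart (13 to 668), and 19 of the 45 gaps were at most 25 nt. Timm23, a channel subunit of the mitochondrial inner membrane, had 125, 73.9 and 174 at 29 nt, 148, 68.0 and 90.2 at 212 nt and 35.7, 12.7 and 70.1 at 232 nt. Values at 29 and 212 nt overlapped between lists, and those at 232 nt were lower in every list. Rps6ka3, a kinase of the ERK pathway, had its strongest member at 450 nt, with 92.4, 19.2 and 38.8. Nras had a weak member at 88 nt (14.6, 25.6 and 16.8) and a strong one at 663 nt (109, 57.7 and 88.7). Mknk2 showed the reverse order, with 55.4, 28.9 and 8.67 at 359 nt, below its member at 46 nt in every list. Tab2, partner of Tab3, likewise had 75.8, 41.2 and 76.0 at 119 nt and 2.01, 4.58 and 27.0 at 433 nt.

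Among the remaining genes with 2 members, Sgpp1 (a sphingosine phosphate phosphatase), Kctd15 and BC031181 each had a region with a mean percentile above 90. At Sgpp1 this region lay at 17 nt, with 85.9, 50.2 and 132. Both regions were under the median of all members (67.8) in Anapc2, Celsr2, Cnot6, Eif6, Farsa, Hal, Ing2, Nfe2l1, Nop53, Rit1, Sdha, Sec63, Suds3, Swi5, Tmco1, Tmem214 and Trim17. Sec63, of the endoplasmic reticulum translocon, was the lowest pair, with percentiles of 29.1 and 22.6. Close pairs of similar score were seen in Cpsf3, a pre-mRNA cleavage factor, at 121 and 143 nt (percentiles 78.7 and 77.8), and in Nfe2l1 at 67 and 86 nt (34.9 and 35.1). Acvr2a, Add1, Atp13a5, Fmo2, Ggnbp2, Hebp2, Iqsec2, Rbbp6 and Slc30a1 also had 2 members, with mean percentiles from 28.5 (Iqsec2 at 48 nt) to 88.9 (Ggnbp2 at 838 nt).

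Genes of RNA-binding proteins and splicing factors held members in 5 of 71 spans (7.04%), and 46 of the 71 held a region of all 3 lists somewhere. These shares are read beside the 2.62% of all spans, without a test. Of the 3649 genes with a region of all 3 lists in such spans, 463 held a member. Among listed genes with such a region, a member lay in 5 of 46 RNA-binding and 8 of 30 translation genes. The counts were 5 of 19 for chromatin, 6 of 38 for signalling and 3 of 18 for epidermal transcription factor genes. They were 2 of 30 for junction, 1 of 17 for cytoskeleton and 4 of 21 for keratin, envelope and barrier genes. The RNA-binding, junction and cytoskeleton shares were below 463 of 3649, and those of the other lists were above it. A share set beside 2.62% does not separate the 5′ end from binding elsewhere in the genes, which was not tested. Syncrip, an hnRNP protein, had 85.4, 53.0 and 90.6 at 65 nt and 53.5, 5.35 and 45.3 at 339 nt. Hnrnpd, which binds AU-rich elements, had 84.1, 32.2 and 64.0 at 337 nt and 96.9, 34.4 and 64.4 at 355 nt, slightly higher at 355 nt in each list. Luc7l2 and Luc7l3, linked to the U1 snRNP, and Srsf3, a serine- and arginine-rich splicing factor, completed the group. Srsf3 was weaker, with 21.0, 2.74 and 48.2 at 68 nt. The stretches at Syncrip and Srsf3 show a member without and one with GGTGG in this group.
Syncrip, chr9:88482519-88482548, minus strand: aagagcgactcggcagggactggggacggg
Srsf3, chr17:29032714-29032743, plus strand: gaaccagagggaagcgGGTGGgcctgtcgg

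Translation genes held members in 8 of 42 spans (19.0%). The 6 with the highest percentiles were the initiation factors Eif5b (47.5, 28.9 and 74.4 at 217 nt), Eif4g2, Eif3h and Eif4g1 and the ribosomal proteins Rps7 (44.5, 29.97 and 57.6 at 292 nt) and Rpl23. The median percentile of the 8 was 75.1 and none reached 90. Chromatin genes held members in 5 of 31 spans (16.1%), namely Smarcc1 and Smarca4 of the SWI/SNF remodeller, the H3K27 methyltransferase Ezh2, the nucleosome binder Hmgn1 and the insulator factor Ctcf. Smarcc1 was the strongest, with 150, 47.4 and 122 at 146 nt, and Ctcf the weakest, with 17.2, 12.2 and 11.6 at 197 nt.

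Signalling genes held members in 6 of 58 spans (10.3%). Mapk3, the ERK1 kinase, had 129, 104 and 212 at 109 nt, and Rac1, a small GTPase of the actin cytoskeleton, had 53.2, 71.6 and 79.03 at 255 nt. Nras, Fgfr3, Braf and Lrp6 were the others, and Fgfr3, a fibroblast growth factor receptor of epithelia, had 78.0, 21.0 and 37.7 at 87 nt. Epidermal transcription factors held members in 3 of 34 spans (8.82%). Xbp1, a factor of the unfolded protein response, had 144, 201 and 126 at 357 nt, and Grhl1 and Klf4, factors of epidermal differentiation, had 103, 23.9 and 42.5 at 350 nt and 50.6, 20.1 and 40.1 at 497 nt.

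Of junction and adhesion genes, 2 of 42 (4.76%) held a member, Perp and Jup, both of the desmosome. Perp had 155, 103 and 165 at 270 nt, and Jup, plakoglobin, had 118, 67.6 and 93.8 at 903 nt. Of cytoskeleton genes 1 of 37 (2.70%) did, Actr2 of the Arp2/3 complex, with 66.3, 73.9 and 84.7 at 119 nt. Of keratins, cornified envelope and barrier genes 4 of 35 (11.4%) did, and all 4 were keratins (Krt5, Krt6a, Krt6b and Krt79).

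The 463 genes were shorter than other genes with regions, at 24442 nt in the median compared with 44383 nt for the 3186 genes whose regions of all 3 lists lay elsewhere. The first 1000 nt is a larger part of a short span, so the rule itself can give such a difference, and nothing was tested on it. In 250 of the 463 genes the 5′ end held the only regions of all 3 lists, 89 also had a region in the last 1000 nt and 169 also had an interior region. Span length enters these counts too.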

How the data were processed

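Per the labels' protocols, ultraviolet-crosslinked epidermal sheets were lysed for FLAG eCLIP, and 6 immunoprecipitated and 6 input libraries were made. The authors deposited 3 lists of single-nucleotide sites with strand and score, each called with input on replicates 1 and 2, 3 and 4, or 5 and 6, per the file headers. The score is the authors' deposited value with no stated scale. Named in the submitters' processing notes, with no role stated, are HISAT2 2.1.0, cutadapt 1.16, HOMER, mm10 and GRCm38. How reads were trimmed, deduplicated and placed among copies is not given in the sources used for this work, and each step can move sites in repeated genes and near transcript ends. Read depth is unknown, so the number of sites per list stands in for it, and intervals (exact Clopper-Pearson, 95%) cover counting error only.

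Sites at most 10 nt apart were joined, and regions were placed on 21887 protein-coding spans of RefSeq (GRCm38.p6), coordinates 1-based. Gene strand was the strand with most sites, and 17492 genes also had an annotated strand and start from promoter sequences. Spans with equal sites on both strands were left out. Places were compared by an exact two-sided sign-flip permutation test over the 3 lists (smallest p 0.25). Joining, placing and counting were tested on simulated data. Python 3.11.15 was used with numpy 2.4.6, pandas 2.3.3 and scipy 1.17.1.

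Members, gene lists and tests were chosen with earlier results of these data known. Genes named were the 15 members with the highest mean percentile, the 10 with most sites, every gene with 2 or more members, the 10 nearest to a span start and up to 6 genes of each list. The keratin family, the printed sequences, the members nearest the 1000 nt limit and those opposite to the annotated strand were added after values were seen. Alternatives covered joining distance, length limits, strand, score filters, lists left out and motif windows. Exons were not used here.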

Additional observations from a re-analysis of the deposited data

How the results depend on the processing

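The share of placed regions in the 5′ window was 8.47% and became 7.35% with the first 500 nt, 10.6% with the first 2000 nt, 7.17% with spans of at least 10000 nt, 9.57% with spans over 1000 nt and 9.41% with the annotated strand, where only genes with a listed strand were counted. With 1 list left out in turn, it ran from 7.998% to 9.18% and the number of regions from 629 to 754, since fewer lists had to agree. Keeping the best 50% of sites by score left 303 regions, and of 141 named regions 49 were lost and 85 of the others had a percentile moved by more than the spread between lists. Spans of at least 10000 nt lost 44 named regions, those of most keratin genes among them, the annotated strand 24 and the first 500 nt 18. The other alternatives kept the number within 1.5 times 508. The share less than 50 nt from a start was 9.25% from the span start and 13.2% from the nearest annotated start. The median percentile of 72.0 became 47.0 among regions of all 3 lists alone and 69.2 with the mean score of a region. The motif share of 48.1% (38 of 79) became 42.3% with 10 nt on each side (41 of 97 members with that window), 62.0% with 50 nt (31 of 50), 31.6% for TGGTG and 24.1% for GTGGT, and GG made up 22.2% of dinucleotides. Best sites per list, and the majority strand among genes with an annotated strand, were alternatives chosen after seeing the data. Counts by exon and intron were not run. No paired analysis was possible because of the pooling of 2 replicates in each list, as far as single replicates go; the comparison of score percentiles between places was paired within the 3 lists.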
